A study of Mus musculus with 12 samples.

Results

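Coinhibitory receptors are the brakes of T cells, and PD-1 has ligands that T cells can carry themselves. The mRNA of 9 such genes was followed here in regulatory T cells (Treg) with and without the transcription factor Ikaros. The members were chosen by name, as 7 receptors (Pdcd1, Lag3, Havcr2, Tigit, Btla, Cd160 and Cd96) and the 2 PD-1 ligands (Cd274 and Pdcd1lg2). All 9 names were found, each under 1 gene identifier, among the 36222 genes of the expression table.

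RNA was sequenced from 12 libraries of mouse Treg, 3 in each of 4 groups. CD4+ T cells of individual mice were sorted on yellow fluorescent protein (YFP). The labels give the spleen as their tissue, and the study's general purification used spleen and lymph nodes. The control group, WT, carried the Foxp3-YFP-Cre reporter and driver with intact Ikzf1, the gene of Ikaros. The conditional knockout group, cKO, carried the same driver together with floxed Ikzf1, so that deletion is restricted to cells that express Foxp3, and both genotypes therefore share the Cre and the reporter. The mice were 6 to 8 weeks old and on a B6 background. RNA was taken either directly ex vivo or after 4 h on plate-bound anti-CD3 and anti-CD28 at 1 µg/ml each, antibodies that trigger the T cell receptor and its costimulator. Nothing in the labels ties an ex vivo library to a stimulated library of the same mouse.

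PD-1 (Pdcd1) recruits phosphatases to the engaged T cell receptor and damps its signal when it meets PD-L1 (Cd274) or PD-L2 (Pdcd1lg2) on another cell. LAG-3 (Lag3) is a CD4-related receptor for MHC class II, TIGIT and CD96 compete with the activating receptor CD226 for the nectin-like ligand CD155, BTLA and CD160 share the ligand HVEM, and TIM-3 (Havcr2) binds galectin-9 and other partners. Treg are known to carry PD-1, LAG-3, TIGIT and CTLA-4, and several of these receptors contribute to suppression by effector Treg.

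The libraries held 8208659 to 20247649 reads assigned to genes. Values are given in scaled TPM, that is TPM, each library's transcripts brought to one total and counted per gene length, divided by a factor for each library that brings most genes to the same level. A single repeat-derived transcript, Gm10800, took 17.7% to 24.4% of the TPM in 5 of the 6 ex vivo libraries, 39.8% in WT ex vivo 2 and 32.6% to 55.9% in the stimulated libraries, highest in the cKO. The factor corrects for this on average, and the part it may have had in any single value was not tested. WT ex vivo 3 stood apart. It held 179 TPM of Xist and 0.0970 TPM of Ddx3y, against 0.624 to 1.36 and 14.7 to 52.8 in the other 11, which marks it as female among male libraries, so the members' ex vivo and WT stimulation results are also given without it.

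Ikzf1 was lower in every cKO library. It measured 114, 104 and 113 scaled TPM in WT ex vivo and 42.1, 33.0 and 38.4 in cKO ex vivo. After stimulation it measured 66.7, 71.1 and 68.9 in WT and 30.0, 30.1 and 23.3 in cKO. The groups did not overlap in either condition, and the log2 change was -1.52 (SE 0.11, adjusted p = 5.45e-05, limma) ex vivo and -1.29 (SE 0.11, adjusted p = 0.000161, limma) after stimulation. The exact two-sided permutation test of 3 against 3 gave p = 0.1, the smallest value it can give with these numbers. Reads were counted over all exons of the gene, so RNA from an allele that has lost only some exons still counts. The Treg markers Foxp3, Il2ra, Ctla4, Ikzf2, Tnfrsf18, Cd4 and Cd3e were all far above 5 TPM in every group, and Foxp3 ranged from 88.6 to 240.0 scaled TPM. Among these 7 markers none was called by genotype ex vivo, although the libraries did not overlap for Cd4 (177 to 209.9 in WT, 260 to 287 in cKO), Tnfrsf18 (88.8 to 108 and 127 to 158), Ikzf2 (130.1 to 148 and 165 to 207) and Ctla4 (708 to 829 and 621 to 703), while Foxp3 (210.0 ± 49.6 against 106 ± 17.3) and Il2ra (212 ± 42.1 against 120 ± 6.34) were higher in cKO after stimulation, and the part of this in the members' values was not tested.

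On the mm9 build, in the GENCODE vM1 annotation, the members are protein-coding genes on 6 chromosomes. Pdcd1 lies at chr1:95934884-95949130 on the minus strand and Lag3 at chr6:124854379-124861723 on the minus strand. Havcr2 lies at chr11:46268437-46294757 on the plus strand and Cd160 at chr3:96602686-96633274 on the minus strand, where its end overlaps Pdzk1 of the other strand by 68 bp. The receptors Tigit, Btla and Cd96 share chromosome 16, with Tigit at chr16:43648974-43664297 (minus), Btla at chr16:45224428-45253008 (plus) and Cd96 at chr16:46035770-46120364 (minus), far apart and with 28 and 18 genes between neighbours. The ligands are direct neighbours on the same strand, with Cd274 at chr19:29441945-29462585 and Pdcd1lg2 at chr19:29485409-29545647, 22.8 kb apart and no annotated gene between them. No member overlapped another gene on its own strand.

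The 250 bases before the start site of PD-1, of its neighbouring ligands and of Tigit are shown because Pdcd1 and Tigit rose together on stimulation while the ligands did not. They come from RefSeq on GRCm38.p6, which held an entry for 8 of the 9 members. Lag3 was not among them. Capitals mark GGGAA, the core of the sites that Ikaros family proteins bind, on either strand.
Pdcd1, chr1:94052554-94052803, minus strand: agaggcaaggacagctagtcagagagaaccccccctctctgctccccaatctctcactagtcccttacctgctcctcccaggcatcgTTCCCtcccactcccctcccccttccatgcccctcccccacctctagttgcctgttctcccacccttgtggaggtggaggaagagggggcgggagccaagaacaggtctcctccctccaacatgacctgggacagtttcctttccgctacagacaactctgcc
Cd274, chr19:29367188-29367437, plus strand: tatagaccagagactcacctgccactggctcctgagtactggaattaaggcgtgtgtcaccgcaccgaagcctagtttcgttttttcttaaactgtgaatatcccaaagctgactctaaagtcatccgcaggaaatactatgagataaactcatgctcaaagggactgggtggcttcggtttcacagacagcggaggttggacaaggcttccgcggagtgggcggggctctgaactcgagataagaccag
Pdcd1lg2, chr19:29410669-29410918, plus strand: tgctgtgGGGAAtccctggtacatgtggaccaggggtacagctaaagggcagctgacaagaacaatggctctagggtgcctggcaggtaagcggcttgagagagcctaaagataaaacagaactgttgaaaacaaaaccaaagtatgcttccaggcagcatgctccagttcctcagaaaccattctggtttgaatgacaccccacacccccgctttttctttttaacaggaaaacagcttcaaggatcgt
Tigit, chr16:43664185-43664434, minus strand: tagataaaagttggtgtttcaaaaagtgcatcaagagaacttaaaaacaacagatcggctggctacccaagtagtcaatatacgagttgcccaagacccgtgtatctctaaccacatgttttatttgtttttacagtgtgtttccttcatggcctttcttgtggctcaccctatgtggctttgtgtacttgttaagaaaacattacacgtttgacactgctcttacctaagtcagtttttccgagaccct

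GGGAA or its reverse complement TTCCC stood once in the Pdcd1 window, at position -163, and once in that of Pdcd1lg2, at -243, and in neither the Cd274 nor the Tigit window. Cd160 had more than 1 window, so the 8 members with an entry held 9 windows. GGGAA was present in 4 of these 9, from 3 members, against 56.2% of all 32851 windows of the same length. GGAAA (reverse TTTCC), the core bound by NFAT, was present in 6 of the 9, against 55.6%, and overlaps GGGAA wherever a run reads GGGAAA. The AP-1 site TGANTCA was found in the Havcr2 window, against 6.75%. The STAT site TTCNNNGAA, which can overlap either core, was found in 1 Cd160 window and in that of Cd96, against 7.02%. These are matches of letters on both strands and no measurement of binding.

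In WT ex vivo Treg the members spanned a wide range. Cd96 and Tigit were highest, at 112 ± 17.2 and 97.7 ± 14.7 scaled TPM (mean ± SD, n = 3), and their libraries overlapped. Btla (52.9 ± 4.73) and Cd274 (51.9 ± 3.22) followed and overlapped each other, then Pdcd1 (25.1 ± 1.72), Lag3 (17.1 ± 2.20) and Pdcd1lg2 (10.3 ± 0.81), each apart from the next. Cd160 (4.37 ± 0.41) and Havcr2 (1.91 ± 0.30) were the lowest. For scale, 1555 olfactory and vomeronasal receptor genes, which T cells do not use, had a median of 0.742 scaled TPM in the same libraries and a 95th percentile of 1.69, and 97.6% of them lay below Havcr2. Havcr2 in WT ex vivo was thus barely above the level of silent genes, whereas the other 8 members were above at least 99.1% of them in every group. In cKO ex vivo the order was Tigit, Cd96, Cd274, Btla, Lag3, Pdcd1, Pdcd1lg2, Havcr2 and Cd160, with overlapping libraries for Lag3 and Pdcd1 and for Havcr2 and Cd160. After stimulation Tigit and Pdcd1 led in both genotypes, and Lag3 stood below Pdcd1lg2 in WT and level with it, within overlapping libraries, in cKO.

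**Figure D1:**
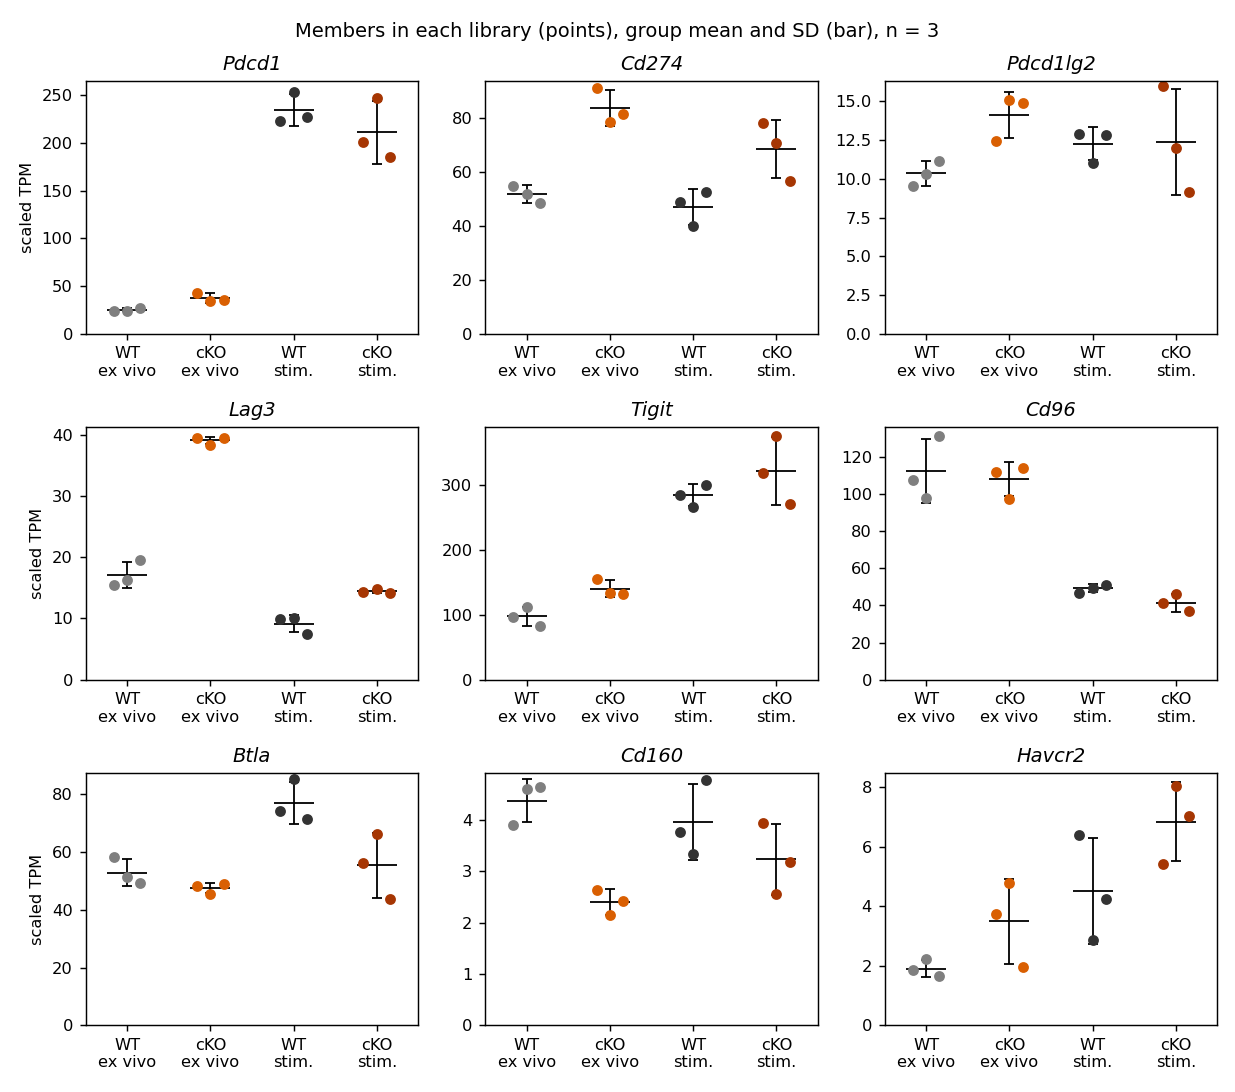
Scaled TPM of the 9 members (one panel each, linear axis from 0) in the 12 libraries, drawn as points by group, with the group mean and SD as bars. Lag3 in the 3 cKO ex vivo libraries sits between 38.4 and 39.5, above every other library, and Pdcd1 and Tigit are higher in all 6 stimulated libraries than in the 6 ex vivo libraries.

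Loss of Ikaros was first examined in resting cells. Of the 8 members that reached 5 TPM in a group mean and were tested, Lag3, Cd274 and Pdcd1 were higher in cKO and none was lower at an adjusted p under 0.05. Over all 13318 genes tested 3.62% were called higher and 1.67% lower. None of the 3 calls held when genes down to 1 TPM were tested and used for scaling. The libraries of the genotypes did not overlap for 6 of the 8 members, against 21.5% of all genes. The median change of the 8 was 0.54 on the log2 scale, with a range of -0.15 to 1.15, while the median of all genes was -0.01.

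Lag3 showed the widest gap between genotypes. It measured 15.5, 16.2 and 19.6 scaled TPM in WT ex vivo and 39.4, 38.4 and 39.5 in cKO ex vivo. All 3 cKO libraries were far above the WT libraries and close to one another, with 2.29-fold between the means. The log2 change was 1.15 (SE 0.11, 95% interval 0.91 to 1.40, adjusted p = 0.000278, limma), and it was called in all 12 fits that left out 1 library, including the fit without the female library (1.25, adjusted p = 0.000425). When genes down to 1 TPM were tested and used for scaling, the change was 1.14 with an adjusted p of 0.0537. In a bulk sample a larger share of cells that express a gene and more RNA per cell cannot be told apart, and this holds for every change given here.

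The ligand Cd274 measured 55.0, 52.0 and 48.6 scaled TPM in WT ex vivo and 91.3, 78.6 and 81.5 in cKO ex vivo. All cKO libraries were above all WT libraries, by 1.61-fold in the mean. The log2 change was 0.68 (SE 0.13, 95% interval 0.39 to 0.97, adjusted p = 0.0140, limma). It was called in 9 of 12 fits without 1 library, and the adjusted p rose to 0.0594 without WT ex vivo 3, 0.0649 without cKO ex vivo 1 and 0.0503 without cKO ex vivo 3, to 0.560 with the 1 TPM filter and to 0.0986 on the TPM as deposited. Its neighbour Pdcd1lg2 measured 9.55, 10.3 and 11.2 in WT and 12.4, 15.1 and 14.9 in cKO. The libraries of Pdcd1lg2 did not overlap either, but its log2 change of 0.41 (95% interval 0.06 to 0.77, adjusted p = 0.198, limma) did not pass the test.

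Pdcd1 itself measured 24.2, 24.1 and 27.1 scaled TPM in WT ex vivo and 43.0, 34.2 and 35.3 in cKO ex vivo. The groups did not overlap, and the mean was 1.49-fold higher in cKO. The log2 change was 0.55 (SE 0.12, 95% interval 0.28 to 0.83, adjusted p = 0.0273, limma). This was the least secure of these calls. It was lost without WT ex vivo 1 (0.0796), WT ex vivo 2 (0.0791), cKO ex vivo 1 (0.108) or cKO ex vivo 3 (0.0701), held without the female library (0.0448) and had an adjusted p of 0.746 with the 1 TPM filter and of 0.0830 on the TPM as deposited.

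Some genes of the B cell marker list were higher in cKO ex vivo alongside Cd274. Cd74, the MHC class II chaperone that activated T cells also express, measured 38.3 to 46.6 scaled TPM in WT ex vivo and 83.5 to 98.2 in cKO ex vivo, and the summed level of the 8 B cell markers was 52.2 to 67.1 and 109 to 122. Of these 8, only Cd74 and Cd79b reached 5 TPM, and only Cd74 was called. The libraries of the genotypes did not overlap for Cd79b (4.95 to 8.15 in WT, 10.3 to 11 in cKO) or for the MHC class II gene H2-Aa (1.81 to 2.71 and 2.99 to 4.72). The B cell genes Ms4a1, Cd79a and Pax5 lay between 0.884 and 3.86 in all 6 ex vivo libraries and overlapped between the genotypes, and none was at 0. The 8 macrophage and 6 dendritic cell markers were all under 5 TPM in the mean of every group, and their sums were 12.4 to 21.2 and 8.11 to 13.8 in the ex vivo libraries. The part of such cells in the ligand values was not tested.

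The remaining receptors gave no genotype call in resting cells. Tigit measured 97.0, 113 and 83.4 scaled TPM in WT and 155, 134 and 132 in cKO. All cKO libraries were above all WT libraries, and the log2 change of 0.53 (95% interval 0.22 to 0.84, limma) had an adjusted p of 0.0578, which fell to 0.0422, 0.0454 and 0.0338 without WT ex vivo 2, cKO stimulated 2 or cKO stimulated 3. Btla measured 58.2, 51.3 and 49.2 in WT and 48.1, 45.4 and 49.0 in cKO, with a log2 change of -0.15 (95% interval -0.45 to 0.15, adjusted p = 0.658, limma) that turned to 0.08 on the TPM as deposited. Cd96 measured 108, 98.1 and 132 in WT and 112, 97.6 and 114 in cKO. The Cd96 libraries overlapped, with a log2 change of -0.05 (95% interval -0.32 to 0.21, adjusted p = 0.901, limma). Without the female library, which had the highest Cd96, that change was 0.06 (adjusted p = 0.865). In the same fit the ex vivo change was 0.41 for Tigit (adjusted p = 0.180), -0.20 for Btla, 0.46 for Pdcd1lg2, 0.51 for Havcr2, -0.60 for Cd160 and -1.50 for Ikzf1 (adjusted p = 0.000387, limma).

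The low members pointed in different ways. Havcr2 measured 1.85, 2.23 and 1.64 scaled TPM in WT ex vivo and 3.74, 4.77 and 1.95 in cKO ex vivo, from 45 to 139 reads per library. The groups overlapped, and the log2 change of 0.58 had a wide interval of -0.08 to 1.23 (adjusted p = 0.355, limma). Cd160 measured 3.89, 4.59 and 4.63 in WT and 2.63, 2.14 and 2.42 in cKO, from 55 to 153 reads. All cKO libraries of Cd160 were below its WT libraries, at 0.549 of the WT mean. Because no group mean of Cd160 reached 5 TPM, it was tested only in the fit of the 33873 genes that reached 1 TPM. There its log2 change was -0.69 (95% interval -1.10 to -0.27) with an adjusted p of 0.305.

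**Figure D2:**
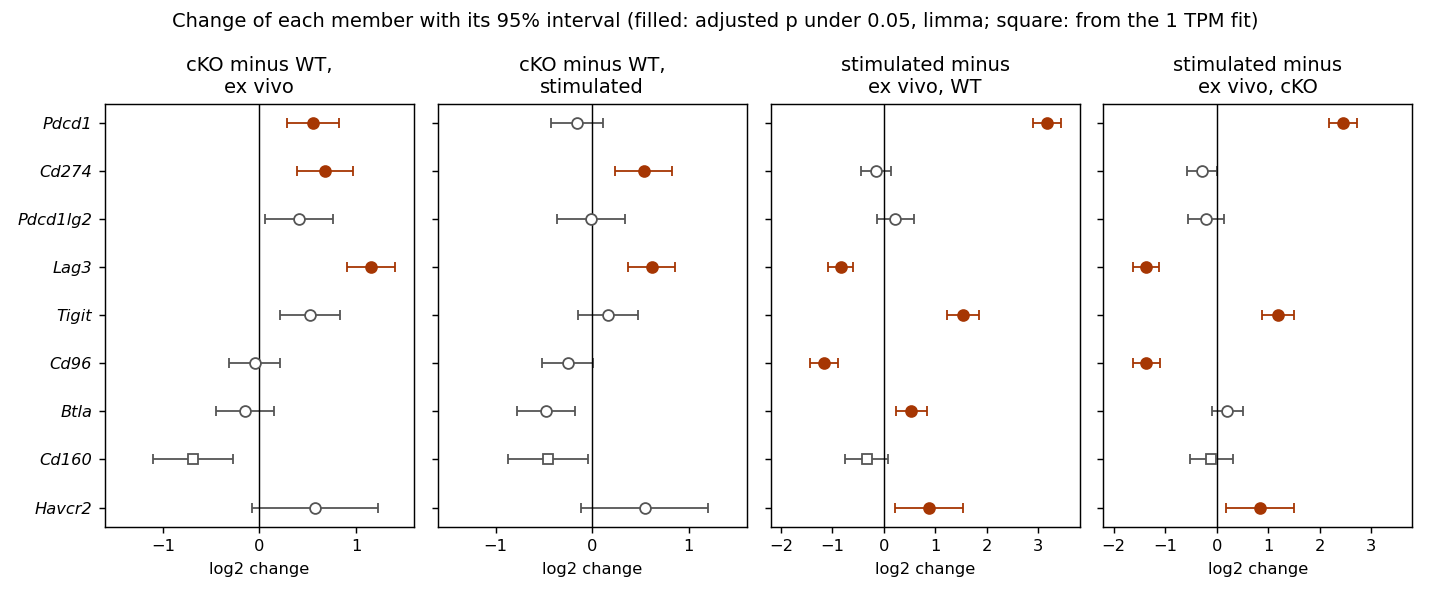
Log2 change of each member with its 95% interval in the 4 pairwise comparisons, cKO minus WT in the left pair of panels and stimulated minus ex vivo in the right pair, with filled points for an adjusted p under 0.05 in limma. Cd160 is drawn as a square because its values come from the fit with the 1 TPM filter. Lag3 and Cd274 are filled to the right of 0 in both genotype panels, and Pdcd1 reaches 3.17 in the WT stimulation panel.

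Stimulation for 4 h reordered the members in both genotypes. In WT, 4 of the 8 tested members rose (Pdcd1, Tigit, Btla and Havcr2) and 2 fell (Lag3 and Cd96), against 12.7% and 19.3% of all genes tested, and 6 of the 8 did not overlap, against 47.5%. In cKO, 3 rose (Pdcd1, Tigit and Havcr2) and the same 2 fell, against 17.3% and 26.5%, and 6 did not overlap, against 53.5%. Havcr2 reached 5 TPM only in the mean of cKO stimulated, the group where it was highest, so it entered the test through that level. Without it 3 of 7 members rose in WT and 2 of 7 in cKO, and 5 of 7 did not overlap in either. These shares of all genes are high, so the number of members called is itself no distinction. The median change of these 7 was that of Pdcd1lg2, 0.22 in WT and -0.20 in cKO, against 0.00 and -0.01 over all genes.

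Pdcd1 had the largest response among the members. It measured 223, 254 and 227 scaled TPM in WT stimulated and 201, 248 and 185 in cKO stimulated. Every stimulated library was more than 4 times the highest ex vivo library of either genotype, and the rise of the mean was 9.33-fold in WT and 5.63-fold in cKO. The log2 change was 3.17 (SE 0.12, 95% interval 2.90 to 3.44, adjusted p = 1.52e-07, limma) in WT and 2.46 (SE 0.12, 95% interval 2.19 to 2.73, adjusted p = 5.79e-07, limma) in cKO. Both were called in all 18 alternative analyses.

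Tigit rose from a higher start. It measured 286, 267 and 301 scaled TPM in WT stimulated and 319, 376 and 271 in cKO stimulated, and was the most abundant member in both groups. The mean was 2.91-fold higher than ex vivo in WT (log2 change 1.54, SE 0.14, adjusted p = 2.24e-05, limma) and 2.29-fold higher in cKO (1.18, SE 0.14, adjusted p = 9.61e-05, limma). In cKO the 1 TPM filter gave 0.63 with an adjusted p of 0.111. In WT the share of Pdcd1 in the summed scaled TPM of all 9 members went from 6.73% to 32.5% and that of Tigit from 26.1% to 39.4%, while that of Cd96 went from 30.1% to 6.82%. In cKO the shares went from 7.87% to 28.7% for Pdcd1, from 29.5% to 43.8% for Tigit and from 22.7% to 5.62% for Cd96.

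Btla and Havcr2 responded less. Btla measured 74.2, 85.4 and 71.4 scaled TPM in WT stimulated, all above WT ex vivo, and 56.4, 66.3 and 43.7 in cKO stimulated, which overlapped cKO ex vivo. The log2 change was 0.53 in WT (95% interval 0.23 to 0.83, adjusted p = 0.0123, limma) and 0.20 in cKO (95% interval -0.10 to 0.50, adjusted p = 0.254, limma). The WT call for Btla was lost without WT stimulated 2 (0.0631), on the TPM as deposited (0.0560) and with the 1 TPM filter (0.634), and cKO gained a call without cKO stimulated 3 (0.0195).

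Havcr2, the gene of TIM-3, measured 6.39, 2.88 and 4.25 scaled TPM in WT stimulated and 5.41, 8.04 and 7.02 in cKO stimulated, from 73 to 162 reads. It was above the ex vivo libraries in both genotypes, with a log2 change of 0.88 in WT (95% interval 0.22 to 1.53, adjusted p = 0.0442, limma) and 0.84 in cKO (95% interval 0.19 to 1.5, adjusted p = 0.0404, limma). The silent receptor genes were also higher in these libraries, with medians of 0.883 and 1.19 scaled TPM against 0.742 and 0.761 ex vivo. The WT call for Havcr2 was lost on the TPM as deposited (0.0563) and held in only 3 of the 12 fits without 1 library, those without cKO ex vivo 2, cKO ex vivo 3 or WT stimulated 2, and was 0.0510 to 0.169 in the other 9. The cKO call was lost without cKO ex vivo 1, cKO ex vivo 3, WT stimulated 3, cKO stimulated 2 or cKO stimulated 3 (0.0548 to 0.149). With the 1 TPM filter the adjusted p was 0.184 in WT and 0.372 in cKO, and on the TPM as deposited the cKO call was lost too (0.202).

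Lag3 and Cd96 went the other way. Lag3 measured 9.89, 10.0 and 7.51 scaled TPM in WT stimulated and 14.4, 14.7 and 14.2 in cKO stimulated. The mean fell to 0.535 of the ex vivo level in WT (log2 change -0.84, SE 0.11, adjusted p = 0.000236, limma) and to 0.369 in cKO (-1.38, SE 0.11, adjusted p = 7.43e-06, limma). On this scale every stimulated cKO library lay below every ex vivo WT library, while on the TPM as deposited they overlapped. Cd96 measured 47.0, 49.6 and 51.2 in WT stimulated and 41.2, 46.0 and 36.7 in cKO stimulated, at 0.438 and 0.382 of the ex vivo means. Its log2 change was -1.17 (SE 0.12, adjusted p = 4.81e-05, limma) in WT and -1.37 (SE 0.12, adjusted p = 1.21e-05, limma) in cKO. All 4 of these falls were called in all 18 alternative analyses. Without the female library, the stimulation calls of Pdcd1, Tigit, Btla, Lag3 and Cd96 in WT were kept, and that of Havcr2 was not (0.82, adjusted p = 0.110, limma).

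The ligands and Cd160 gave no stimulation call. Cd274 measured 48.8, 39.9 and 52.5 scaled TPM in WT stimulated and 78.1, 70.8 and 56.8 in cKO stimulated. Its log2 change was -0.15 in WT (95% interval -0.44 to 0.15, adjusted p = 0.433, limma), and 0.05 on the TPM as deposited, and in cKO it was -0.29 (95% interval -0.59 to -0.00, adjusted p = 0.0920, limma), and -0.84 with an adjusted p of 0.0389 under the 1 TPM filter. Pdcd1lg2 measured 12.9, 11 and 12.8 in WT stimulated and 16.0, 12 and 9.17 in cKO stimulated, with changes of 0.22 (adjusted p = 0.317, limma) and -0.20 (adjusted p = 0.317, limma). Without cKO stimulated 1, its highest library, the latter was -0.38 with an adjusted p of 0.0470. Cd160 measured 3.75, 3.33 and 4.78 in WT stimulated and 3.94, 2.56 and 3.18 in cKO stimulated, and overlapped its ex vivo libraries in both genotypes.

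**Figure D3:**
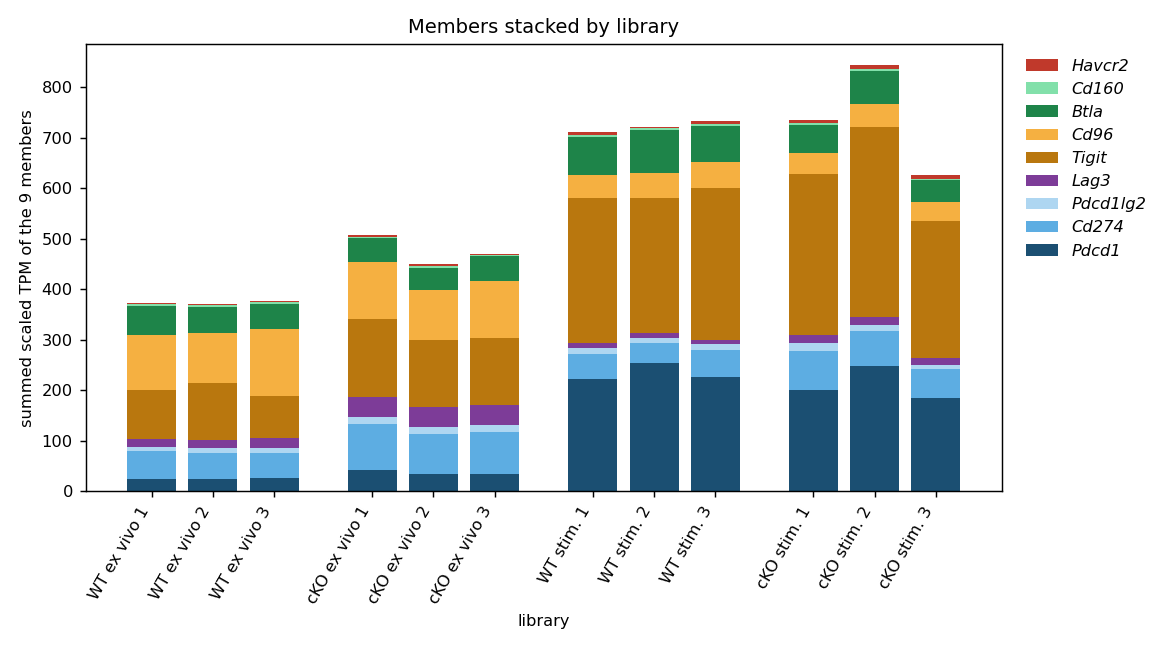
Summed scaled TPM of the 9 members in each of the 12 libraries, stacked by gene on a linear axis from 0. The sum lies between 372 and 377 in WT ex vivo, 450.3 and 508 in cKO ex vivo, 712 and 733 in WT stimulated and 626 and 844 in cKO stimulated, and the growth with stimulation is in Pdcd1 and Tigit.

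In stimulated cells, Lag3 and Cd274 remained higher in cKO. They were 2 of the 8 members tested, against 3.3% of all genes called higher, and no member was called lower, against 3.63%. The libraries did not overlap for 4 of the 8, against 30.8%. Lag3 was 1.58-fold higher in the mean, with a log2 change of 0.62 (SE 0.11, 95% interval 0.37 to 0.86, adjusted p = 0.00803, limma), and the call held in all 12 fits without 1 library. On the TPM as deposited it was 0.35 with an adjusted p of 0.210, and with the 1 TPM filter 0.33 with an adjusted p of 0.461.

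Cd274 was 1.46-fold higher after stimulation, and its lowest cKO library, 56.8 scaled TPM, was above its highest WT library, 52.5. The log2 change was 0.53 (SE 0.13, 95% interval 0.24 to 0.82, adjusted p = 0.0366, limma). The call was lost without cKO ex vivo 3 (0.0583), WT stimulated 1 (0.0720), WT stimulated 2 (0.154), cKO stimulated 1 (0.127) or cKO stimulated 2 (0.0886), with only the stimulated groups in the fit (0.0990), on the TPM as deposited (0.518) and with the 1 TPM filter (0.716). Cd74 again moved alongside it, at 25.7 to 34.0 scaled TPM in stimulated WT cells and 46.2 to 68.3 in stimulated cKO cells. The summed B cell markers were 44.0 to 54.0 in stimulated WT cells and 85.5 to 94.0 in stimulated cKO cells, and both tested markers, Cd74 and Cd79b, were called higher in cKO. Ms4a1 (1.15 to 1.23 in WT, 2.09 to 4.24 in cKO) and Pax5 (2.72 to 3.5 in WT, 3.51 to 6.64 in cKO) were also higher in every cKO library, while Cd79a overlapped (1.73 to 3.00 and 1.72 to 2.62). The part of B cells in the Cd274 value was not tested.

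The other members did not differ by genotype beyond the test after stimulation. Pdcd1 had a log2 change of -0.16 (95% interval -0.43 to 0.11, adjusted p = 0.460, limma) and Tigit of 0.17 (95% interval -0.14 to 0.48, adjusted p = 0.503, limma), the latter -0.14 with the 1 TPM filter and -0.13 on the TPM as deposited. For both genes cKO stimulated 2 was the highest and cKO stimulated 3 the lowest of the cKO libraries, and the cKO libraries spread more widely than the WT libraries. Btla was lower in all cKO libraries, at 0.720 of the WT mean, with a log2 change of -0.48 (95% interval -0.78 to -0.18, adjusted p = 0.0598, limma), and -0.65 with an adjusted p of 0.0187 without cKO stimulated 2. Cd96 was lower in all cKO libraries as well, by a log2 change of -0.25 (95% interval -0.52 to 0.01, adjusted p = 0.231, limma). Pdcd1lg2, Havcr2 and Cd160 overlapped between the genotypes, with log2 changes of -0.01 (95% interval -0.37 to 0.34), 0.54 (-0.11 to 1.20) and, in the fit with the 1 TPM filter, -0.46 (-0.87 to -0.04, adjusted p = 0.342, limma).

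Whether stimulation acted differently in cKO was tested directly, as the difference between the genotype effects. No member was called by limma, against 0.451% of all genes called higher and 0.653% called lower. At an unadjusted p under 0.05 there were 2 of the 8, Pdcd1 (0.00187) and Lag3 (0.00589), and 1925 of all 13318 genes. The fitted difference was negative for all 8, from -0.71 to -0.03. It was positive for Cd160 in the fit with the 1 TPM filter (0.23, 95% interval -0.36 to 0.82). The median of the 7 without Havcr2 was that of Tigit, -0.36, against -0.04 for all genes. The median of all genes moved with the scaling and was -0.52 on the TPM as deposited. The difference of Havcr2 turned to between 0.03 and 0.21, and that of Cd274 to 0.02, in some fits without 1 library. For Pdcd1 the difference was -0.71 (SE 0.17, 95% interval -1.10 to -0.33, adjusted p = 0.0829, limma), and -0.86 with an adjusted p of 0.0357 without cKO stimulated 2. For Lag3 it was -0.54 (SE 0.16, 95% interval -0.89 to -0.19, adjusted p = 0.140, limma) and was called in none of the 12 fits without 1 library. Without the female library the differences were -0.73 for Pdcd1 and -0.60 for Lag3 (adjusted p = 0.123 and 0.124, limma). Cd274 had a difference of -0.15 (95% interval -0.56 to 0.26, adjusted p = 0.752, limma).

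The genes around the members were followed through lists. Of the 9 other coinhibitory receptors listed, 8 were in the table and 6 were tested. Ex vivo, Klrg1, a receptor of effector cells that binds cadherins, was the only one called, against 3.62% of all genes called higher. It measured 18.7 ± 0.95 scaled TPM in cKO and 9.90 ± 0.86 in WT (log2 change 0.86, adjusted p = 0.000725, limma). After stimulation 2 were lower in cKO, against 3.63% of all genes. These were Cd5 (172 ± 22.7 against 291 ± 14.1) and 4632428N05Rik, the older name of the VISTA gene Vsir (71.5 ± 10.4 against 108 ± 6.05). Ctla4, which takes CD80 and CD86 from antigen-presenting cells, fell on stimulation from 750.4 ± 68.3 to 206 ± 4.97 in WT and from 664 ± 41 to 256 ± 39.5 in cKO, and like Lag3 and Cd96 it fell in both genotypes. In WT 1 of the 6 rose and 1 fell, against 12.7% and 19.3% of all genes, and in cKO 1 rose and 3 fell, against 17.3% and 26.5%. The one that rose in cKO, Cd200r1, had an adjusted p of 0.609 with the 1 TPM filter.

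Among 14 binding partners of the members, 9 were tested. Cd80, which binds PD-L1 on the same cell as well as CTLA-4 and CD28, was the only one that differed by genotype. The shares of all genes called higher were 3.62% ex vivo and 3.3% after stimulation. Cd80 was higher in cKO both ex vivo (7.56 ± 0.83 against 2.49 ± 1.03 scaled TPM, log2 change 1.33, adjusted p = 0.00587, limma) and after stimulation (11.4 ± 2.55 against 5.39 ± 0.72, log2 change 0.94, adjusted p = 0.0260, limma, called in 7 of 12 fits without 1 library). On stimulation 2 partners rose and 4 fell in WT, against 12.7% and 19.3% of all genes, and 3 rose and 4 fell in cKO, against 17.3% and 26.5%. With the 1 TPM filter 3 of these 6 calls in WT and 4 of these 7 in cKO held, the latter being the 4 falls. Of the 3 that rose in cKO, Pvrl2 and Rgmb were named after their values were seen. Pvrl2 reached 5 TPM only in the mean of cKO stimulated, so it entered the test through the group where it was highest. Rgmb reached 5 TPM only in the means of the stimulated groups. Those that fell were Lgals9, the gene of galectin-9, Hmgb1, a further ligand of TIM-3, Pvr, the gene of CD155, and Cd226. In WT Lgals9 went from 67.5 ± 7.93 to 28.6 ± 4.82, Pvr from 31.2 ± 5.85 to 18.3 ± 0.47 and Cd226 from 24.3 ± 2.92 to 13.1 ± 1.5.

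Because TIGIT and CD226 compete for CD155, their mRNA was set side by side within each library. Ex vivo, the ratio of Tigit to Cd226 ran from 3.02 to 5.02 in WT and from 4.73 to 6.79 in cKO. With stimulation it ran from 20.3 to 23.0 in WT and from 17.9 to 25.0 in cKO. The stimulated libraries were thus apart from the ex vivo libraries, and the genotypes overlapped in both conditions. The ratio of Pdcd1 to its ligand Cd274 was 0.440 to 0.558 in WT ex vivo and 0.433 to 0.471 in cKO ex vivo, which overlapped. After stimulation it was 4.32 to 6.36 in WT and 2.57 to 3.5 in cKO, which did not. These ratios follow from the levels above and were not tested on their own.

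**Figure D4:**
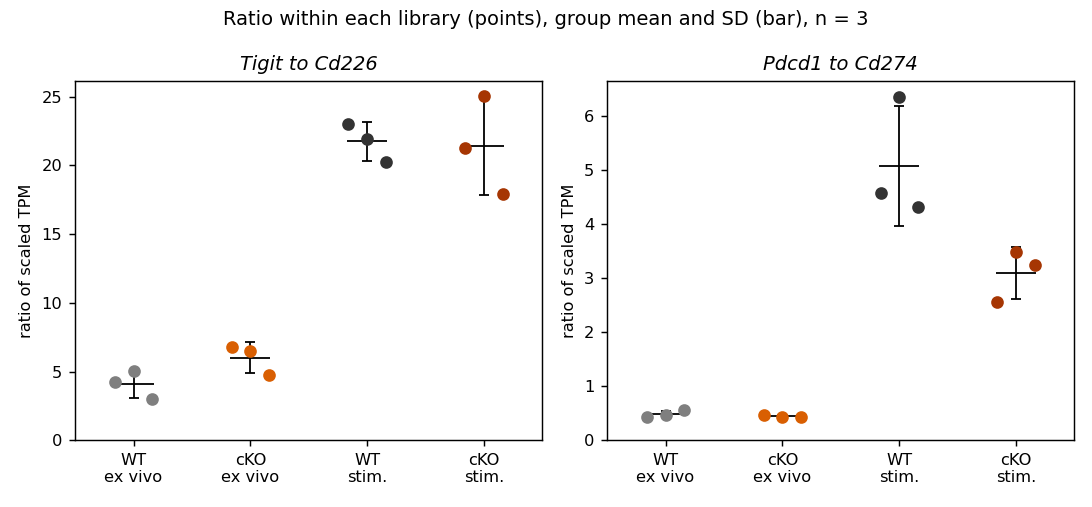
Ratios of scaled TPM within each of the 12 libraries, on linear axes from 0, with a point for each library and bars for the group mean and SD. The ratio of Tigit to Cd226 is above 17 in all stimulated libraries and below 7 in all ex vivo libraries, and that of Pdcd1 to Cd274 lies between 2.57 and 3.5 in cKO stimulated and between 4.32 and 6.36 in WT stimulated.

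The signalling partners of these receptors were mostly lower after stimulation. Of 9 signalling partners, 5 fell in WT and all 9 in cKO, against 19.3% and 26.5% of all genes, and none rose. With the 1 TPM filter 3 of the 5 and all 9 were called. Ptpn6, the gene of the phosphatase SHP-1, went from 56.5 ± 5.48 to 35.5 ± 1.62 scaled TPM in WT and from 49.9 ± 1.56 to 22 ± 2.35 in cKO, and Lck, the kinase that starts T cell receptor signalling, from 236 ± 24.1 to 121 ± 4.23 and from 225 ± 9.86 to 89.9 ± 8.39. By genotype, Ptpn11, the gene of the phosphatase SHP-2 that PD-1 recruits, was the only one called ex vivo, against 3.62% of all genes called higher. It was higher in cKO (28.5 ± 3.15 against 18.4 ± 1.59, log2 change 0.60, adjusted p = 0.00548, limma). After stimulation 3 were lower in cKO, against 3.63% of all genes. These were Ptpn6 (adjusted p = 0.00204, limma), called in all 12 fits without 1 library, Lck (0.0270), called in 7, and Arrb2 (0.0497), called in 1.

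Of 12 tested transcription factors with known roles at these genes, 6 were higher in cKO ex vivo and none lower, against the 3.62% and 1.67% of all genes. Of these 6, 3 were called in every fit without 1 library and 0 with the 1 TPM filter. Tbx21, the gene of T-bet, measured 10.8 ± 0.22 scaled TPM in cKO and 4.79 ± 0.67 in WT (log2 change 1.04, adjusted p = 0.000933, limma). Irf4, which drives effector Treg, measured 90.4 ± 6.94 and 41 ± 2.98 (1.12, adjusted p = 0.00123, limma). Prdm1, the gene of Blimp-1, and Nfil3 were the next by adjusted p, and Nfil3 was called in 8 of 12 fits without 1 library (0.0525 without the female library). After stimulation 5 were higher and 1 was lower in cKO, against 3.3% and 3.63% of all genes, and 3 of these 6 calls held in every fit without 1 library. Tbx21 reached 24.0 ± 3.69 in cKO against 6.49 ± 0.61 in WT, and Tcf7, the gene of TCF-1, was the one that was lower, at 130 ± 20 against 319 ± 26.9.

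Interferon-gamma and its signalling were listed because this cytokine induces Cd274. Of 10 genes, 1 was higher in cKO ex vivo and 1 was lower, against 3.62% and 1.67% of all genes. Ifng was the higher one (71.2 ± 19.4 against 22.5 ± 4.31 scaled TPM, log2 change 1.6, adjusted p = 0.00616, limma) and its receptor gene Ifngr1 the lower one (105 ± 13.2 against 207 ± 32.5). After stimulation 4 were higher in cKO and none lower, against 3.3% and 3.63% of all genes. Among these were Socs1, a feedback inhibitor of the pathway, with a log2 change of 2.18, Ifng with 2.54 and Irf1, which acts at the Cd274 promoter, with 0.85. Ifng itself fell on stimulation, from 22.5 ± 4.31 to 4.00 ± 1.08 in WT (adjusted p = 0.000106, limma) and from 71.2 ± 19.4 to 28.5 ± 9.67 in cKO (adjusted p = 0.00277, limma). Irf1 in WT went from 129 ± 3.77 ex vivo to 61.2 ± 9.74 after stimulation.

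Of 8 genes of effector Treg, 4 were higher in cKO ex vivo and none lower, against 3.62% and 1.67% of all genes, namely Klrg1, Prdm1, Cd44 and Il10. Il10, the suppressive cytokine, measured 67.7 ± 5.54 scaled TPM against 37.1 ± 8.72 (adjusted p = 0.0366, limma). It was called in 6 of 12 fits without 1 library, and Cd44 in 8. Without the female library the adjusted p was 0.126 for Il10 and 0.0792 for Cd44. Of 8 genes of central Treg, 3 were lower and none higher, among them Klf2 and Lef1, against the same shares. Klf2, which maintains recirculation, measured 547 ± 57.8 against 1495 ± 281. After stimulation 2 effector genes were higher (Icos, called in all 12 such fits, and Prdm1, called in 7), while of the central genes 4 were lower and Bcl2 was higher, against 3.3% of all genes called higher and 3.63% lower. Across these 7 lists, counting each gene once, 16 genes were called ex vivo, of which 11 were called in every fit without 1 library and none with the 1 TPM filter. In stimulated cells 21 were called by genotype, of which 13 and 5 were kept.

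The genes whose pattern over the 12 libraries was most like that of each member were taken by Pearson r on the log2 scale, as a description of points that share libraries, scaling and 4 group levels. Pdcd1 was closest to Tbc1d30 and Epas1 (both 0.984), Tigit to Creb3l2 (0.984) and Serinc5 (0.981), and Cd96 to Lat and Arhgdib (both 0.996). Lag3 was closest to Grik5 (0.968) and Abi2 (0.964), Cd274 to Pear1 (0.955) and Plxnd1 (0.945), and Btla to Tnpo1 (0.965) and Sin3a (0.942). Havcr2 was closest to Cnnm3 (0.939) and Tcea2 (0.933), and Pdcd1lg2 to Ei24 (0.878) and U4 (0.855). Between members, r was 0.968 for Pdcd1 and Tigit, -0.945 for Pdcd1 and Cd96, 0.75 for Lag3 and Cd274 and 0.587 for the neighbouring ligands Cd274 and Pdcd1lg2.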

How the data were processed

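Treg RNA was measured by RNA-seq of 12 libraries. Per the study's methods, the authors sequenced rRNA-depleted, strand-specific libraries as 51-base paired reads, aligned them with STAR 2.6.0c to mm9 and counted exonic reads on the reverse strand with HTSeq 0.6.1 on Ensembl gene models. The deposited table holds, for each library, TPM, declared as a signal because they were computed by the authors from those reads, and the log2 of the same values. A further deposited table of the authors' own comparisons holds fold changes and p-values and was not used. Reads were recovered from the log2 values, where 99.9993% of values above 0 came out whole within 0.1, and served to give depth only.

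TPM were scaled by an unweighted trimmed mean of M-values (30% of M and 5% of A trimmed) over the 13318 genes whose highest group mean reached 5 TPM, and log2(scaled TPM + 1) was fitted with limma 3.58.1 in R 4.3.3 with an intensity trend, in one fit of the 4 groups. Log2 changes are on that scale, which understates changes of low genes, and folds are ratios of mean scaled TPM. P-values were adjusted by Benjamini-Hochberg over all genes tested and called under 0.05. The fits were tested on simulated data. Depth was 8208659 to 20247649 reads, and replicates differed by more than counting noise (chi-square per degree of freedom 4.91 to 55.3), so p-values rest on the spread between mice. Cd160 did not reach 5 TPM in any group mean and was taken from the fit with a minimum of 1 TPM.

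Members, lists and tests were chosen with earlier results of these data known. Genes named beside the members are, for each list and comparison, up to 4 called genes of smallest adjusted p and, for each tested member, the 2 genes of highest Pearson r. Some genes that this rule names are not reported here. Alternatives were a 1 TPM filter, a pseudocount of 0.5, TPM as deposited, median-of-ratios scaling, only the groups compared, a replicate block and leaving out each library in turn.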

Additional observations from a re-analysis of the deposited data

How the results depend on the processing

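With the 1 TPM filter, which tests 33873 genes and scales on them, 57 genes differed by genotype ex vivo (704 in the main analysis), 68 after stimulation (923), 1838 by stimulation in WT (4262), 5903 by stimulation in cKO (5835) and 0 in the interaction (147), and on the TPM as deposited 273, 306, 1943, 4674 and 67. No member differed by genotype with the 1 TPM filter in either condition, and on the TPM as deposited 1 did ex vivo (Lag3) and 0 after stimulation. The split of higher and lower calls moved as well, under another scaling alone (as deposited) or with other genes and scaling together (1 TPM filter). For the genotype effect ex vivo it was 482 to 222 in the main analysis, 260 to 13 as deposited and 44 to 13 with the 1 TPM filter. In the same order it was 439 to 484, 69 to 237 and 32 to 36 for genotype after stimulation. For stimulation in cKO it was 2305 to 3530, 558 to 4116 and 757 to 5146. For stimulation in WT it was 1688 to 2574, 1175 to 768 and 304 to 1534, so that more genes were called higher than lower only as deposited. The median of all genes shifted by -0.49 (1 TPM filter) and -0.30 (as deposited) for stimulation in cKO. With only the groups compared, 553 genes and 1 member (Lag3) differed by genotype after stimulation. Leaving out 1 library gave 324 to 740 genes and 1 to 4 members ex vivo, 398 to 1057 and 1 to 2 after stimulation, 3256 to 4387 and 5 to 6 for stimulation in WT, 4098 to 5992 and 4 to 6 in cKO, and 50 to 203 and 0 to 1 for the interaction. The causes were not tested.

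The replicate numbers did not pair the libraries as a whole. Of 18 same-numbered pairs, 2 had a correlation of deviations over 0.1 (range -0.208 to 0.257), and 6 of 12 libraries matched best their own number. Between WT and cKO ex vivo, however, the same-numbered pairs had 0.149, 0.257 and 0.078, against -0.182 to 0.063 for pairs of unlike number. Whether libraries of one number shared a batch was not tested. With the replicate block 516, 630, 3944, 5458 and 65 genes were called in the 5 comparisons, and Pdcd1 ex vivo (adjusted p = 0.0585, limma) and Havcr2 on stimulation in WT (0.0636) and cKO (0.0569) lost their calls.

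Changes that turned sign were all uncalled. Tigit after stimulation was -0.14 (1 TPM filter) and -0.13 (as deposited), Btla ex vivo 0.08 (as deposited) and Btla on stimulation in cKO -0.34 and -0.13. On the TPM as deposited Cd160 was 0.04 on stimulation in WT and 0.07 in cKO, Cd96 ex vivo 0.19 and Cd274 on stimulation in WT 0.05. Pdcd1lg2 was 0.00 after stimulation with median of ratios, 0.01 with only the groups compared and -0.01 on stimulation in WT with the 1 TPM filter. The interaction of Ikzf1 was -0.04 (1 TPM filter) and -0.29 (as deposited). Without 1 library the ranges were -0.31 to 0.21 for Havcr2 in the interaction (0.03, 0.07, 0.11 and 0.18 in other such fits), -0.25 to 0.01 for Cd160 on stimulation in cKO, -0.26 to 0.02 for Cd274 in the interaction, -0.20 to 0.20 (0.02 in others) for Pdcd1lg2 by genotype after stimulation and -0.38 to 0.02 for Pdcd1lg2 on stimulation in cKO, and Cd96 ex vivo reached 0.02 and 0.06. Of the alternatives for members and Ikzf1, 794 kept direction and side of the threshold, 52 lost a call, 8 gained one and 29 turned sign. Havcr2 and Cd160 rest on 44 to 162 reads per library.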
